A study of Rattus norvegicus with 9 samples.

Results

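The genes of mitochondrial ribosomal proteins were examined in livers of male Wistar rats, with 75 genes measured among the 19253 protein-coding genes that the array resolved. They were the genes whose symbol is Mrpl or Mrps followed directly by a number, 46 Mrpl genes, named for the large subunit, and 29 Mrps genes, named for the small subunit. Pseudogenes were left out, as were 4 probe clusters that carried a second gene symbol. A gene on several clusters was read from its brightest one, which applied to Mrpl1 and Mrpl36. The 9 arrays each held a pool of RNA from 3 rats, with 3 pools per group. The rats were 6 to 8 weeks old when obtained, and all received a daily oral gavage for 7 days. The healthy control group (pools 7 to 9) received the vehicle. The T2D control group (pools 4 to 6) was made diabetic with a high-fat diet for 4 weeks and streptozotocin at 35 mg/kg, a toxin of the insulin-producing cells, with the diet continued, and then received the vehicle. The T2D treated group (pools 1 to 3) had the same diabetes induction and received 28 mg/kg of the lupin seed protein Cγ together with 20 mg/kg of the lupin alkaloid lupanine. Healthy livers were lysed in Buffer RLT and all diabetic livers in Trizol, so diabetes, diet, streptozotocin and lysis reagent cannot be told apart in any comparison with the healthy group. P-values set each difference against the spread between pools, which may be partly technical. The pools of a group may share handling, and a shared effect of handling would not show in that spread.

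Mitochondria carry their own ribosomes, which translate the few respiratory chain and ATP synthase subunits encoded in mitochondrial DNA. Their ribosomal RNAs are made inside the organelle, whereas all their proteins are encoded in the nucleus, translated in the cytosol and imported. Some of these proteins have a counterpart in bacterial ribosomes, others were added in the course of mitochondrial evolution, and they assemble into a small subunit that decodes the mRNA and a large subunit that forms peptide bonds. Liver is rich in mitochondria and depends on this system for oxidative metabolism. Some symbols mislead: in mammalian ribosomes the products of Mrps30 and Mrps18a sit in the large subunit, Mrps36 encodes a subunit of the 2-oxoglutarate dehydrogenase complex, and Mrpl58 encodes a peptidyl-tRNA hydrolase that became a part of the large subunit.

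The deposited values are log2 signals, where a difference of 1 is a factor of 2. Over the 9 arrays the mean signal of the genes ran from 3.68 (Mrpl44) to 8.23 (Mrpl53) in the large subunit and from 4.11 (Mrps6) to 7.30 (Mrps18b) in the small subunit. Brightness also depends on the probes, so these levels do not order the transcripts. A mean of at least 5 was reached by 64 genes, and 11 were dimmer. In 5 genes all 3 pools of a group held 1 identical value, which 7174 of the 68842 clusters also showed. As 24 genes have pseudogenes or near-identical copies in the rat annotation, their signals may hold a share of the copies. Mrpl41l1 and Mrps21l are themselves annotated as like copies of Mrpl41 and Mrps21.

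The arrays of the healthy group stood apart in the background probes, a set of control probes, and in the medians of the arrays. The mean log2 signal of the background probes was 3.35 to 3.72 in the healthy pools, 2.80 to 2.85 in the T2D control pools and 2.85 to 2.94 in the treated pools. The median over all clusters was 3.16 to 3.27 in healthy and 3.06 to 3.11 in diabetic livers, while the median over bright protein-coding clusters went the other way, at 6.01 to 6.04 and 6.11 to 6.17.

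Diabetic livers had lower signals for most mitochondrial ribosomal protein genes than healthy livers. In T2D control against healthy control, 50 of the 75 genes fell and 2 rose at an adjusted p under 0.05 (limma, Benjamini-Hochberg over all clusters), and 23 were not called. Over all 68842 clusters, 22.6% were called lower and 12.4% higher in this comparison. The median difference of the 75 genes was -0.41 on the log2 scale, against -0.12 over all clusters and 0.04 over the 8105 protein-coding genes with a mean signal of at least 5. Among those brighter genes, a signal that 64 of the 75 genes reached, 24% were called lower and 31.7% higher. Among all 19253 protein-coding genes, at 1 cluster each, calls were more often downward, at 25.6% lower and 16.5% higher, with a median of -0.09. The genes of the mitochondrial ribosome were called lower more often than either set. All 3 T2D control pools lay below all 3 healthy pools in 54 of the 75 genes (72%) and above them in 3 (4%), compared with 32.7% and 15% of all clusters. In bulk liver, fewer cells of a type and less RNA per cell cannot be told apart.

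**Figure D1:**
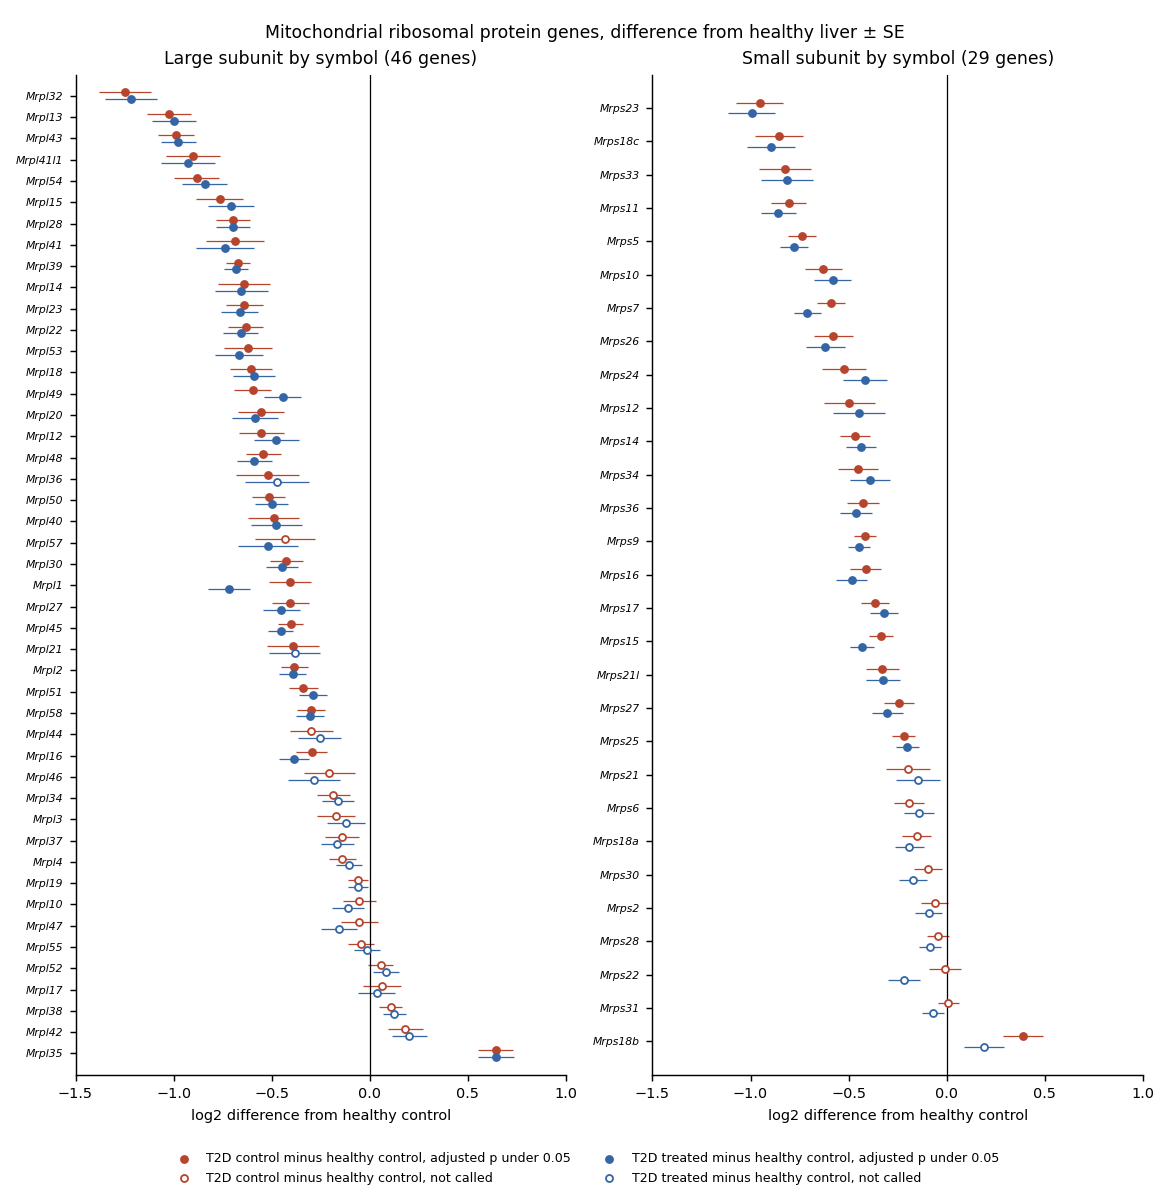
Difference from healthy control of each of the 75 genes on the log2 scale (x axis) with its SE, for T2D control (red) and T2D treated (blue); filled points passed an adjusted p of 0.05. Most points of both subunits lie left of 0, from -1.25 for Mrpl32, and Mrpl35 lies farthest to the right at 0.64.

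The healthy and diabetic arrays also differed in the signal of the background probes. Within the healthy group the genes stood in the same order as the background probes, at 3.50, 3.72 and 3.35 in pools 7, 8 and 9. Pool 8, with the highest background signal, was the highest healthy pool in 67 of 75 genes, and pool 9, with the lowest, was the lowest in 55. The median deviation of the genes from their own mean was 0.25, 0.44 and 0.18 in healthy pools 7, 8 and 9, and between -0.17 and -0.09 in the 6 diabetic pools. The order did not hold in the diabetic groups, where T2D control pool 4 and treated pool 1 had the highest background signal of their group (2.85 and 2.94) and the lowest median deviation (-0.17 and -0.16). Without pool 8, 47 genes fell and the median difference was -0.36. When the background-probe signal was added to the fit as a covariate, a setting chosen after seeing the data, none of the 75 genes was called (11 at an unadjusted p under 0.05), and the median difference was 0.15. In that fit the median SE of the genes grew from 0.09 to 0.23, and the groups accounted for 92.3% of the variance of the covariate. Over all clusters it left 1559 called lower and 738 higher, and group and background signal can hardly be separated with these 9 arrays.

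**Figure D2:**
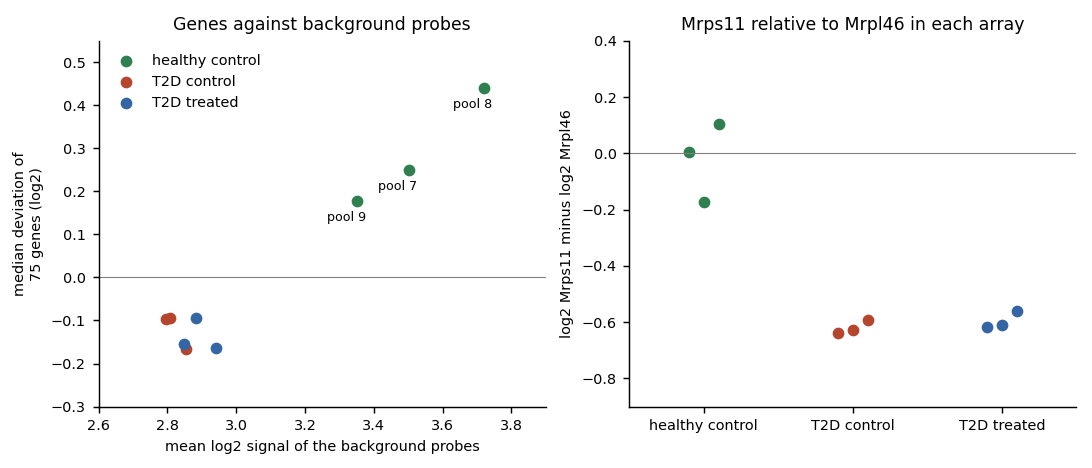
Left, median log2 deviation of the 75 genes against the mean log2 signal of the background probes, 1 point per array. Right, log2 signal of Mrps11 minus that of Mrpl46 in each array. The 3 healthy arrays are apart from the 6 diabetic arrays on both axes of the left panel, and in the right panel they lie between -0.17 and 0.10 while the diabetic arrays lie between -0.64 and -0.56.

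Mrpl32 showed the largest fall. Its product, the counterpart of bacterial L32, is cut by a protease of the inner membrane after import before it joins the large subunit. The log2 signals were 7.66, 8.25 and 7.80 in healthy pools 7, 8 and 9, 6.71, 6.66 and 6.60 in T2D control pools 4, 5 and 6, and 6.68, 6.70 and 6.68 in treated pools 1, 2 and 3. Every diabetic pool was lower than every healthy pool, by about 1 log2 unit or more. The difference between T2D control and healthy control was -1.25 ± 0.13 (SE), a 2.37-fold lower signal (limma, adjusted p = 0.000417).

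Mrpl13, the counterpart of bacterial L13, followed with 5.87, 6.30 and 5.93 in the healthy pools and 4.93, 5.08 and 5.02 in the T2D control pools. The difference was -1.02 ± 0.11 (limma, adjusted p = 0.000485). Mrpl43, which has no bacterial counterpart, read 6.35, 6.49 and 6.17 in the healthy pools and 5.32, 5.41 and 5.32 in the T2D control pools, and fell by 0.99 ± 0.09 (limma, adjusted p = 0.000228). Neither gene had overlapping groups. In both, the treated pools (4.96 to 5.11 for Mrpl13 and 5.24 to 5.46 for Mrpl43) stayed at the level of the T2D control pools.

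In the small subunit the largest falls belonged to Mrps23 and Mrps18c. Mrps23, specific to mitochondria, read 6.41, 6.70 and 6.17 in the healthy pools, 5.41, 5.49 and 5.51 in the T2D control pools and 5.35, 5.49 and 5.46 in the treated pools, with a difference of -0.95 ± 0.12 between T2D control and healthy control (limma, adjusted p = 0.000917). Mrps18c read 7.41, 7.79 and 7.43 in healthy, 6.53, 6.75 and 6.78 in T2D control and 6.53, 6.78 and 6.64 in treated pools, a fall of 0.86 ± 0.12 (limma, adjusted p = 0.00157). The healthy and diabetic pools were again separate in both genes.

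Mrpl41l1 and Mrpl54 complete the 6 largest falls. Mrpl54 encodes a large subunit protein without a bacterial counterpart. Its signals were 7.73, 7.88 and 7.45 in the healthy pools and 6.72, 6.94 and 6.76 in the T2D control pools, with a difference of -0.88 ± 0.12 (limma, adjusted p = 0.0011). A cluster of its pseudogene Mrpl54-ps1 differed by -1.09 ± 0.13, so the 2 clusters may not measure separate transcripts. Mrpl41l1 differed by -0.90 ± 0.14 and its parent Mrpl41 by -0.69 ± 0.15, and both fell (limma, adjusted p = 0.00204 and 0.00882).

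Against this direction, Mrpl35 and Mrps18b rose. Mrpl35, the counterpart of bacterial L35, had signals of 5.92, 5.89 and 5.86 in the healthy pools and 6.44, 6.71 and 6.44 in the T2D control pools. All diabetic pools were above all healthy pools, and the treated pools read 6.52, 6.66 and 6.43. The difference was 0.64 ± 0.09, a 1.56-fold higher signal in T2D control (limma, adjusted p = 0.00148). Mrps18b read 7.13, 7.26 and 6.93 in healthy and 7.39, 7.63 and 7.47 in T2D control, a difference of 0.39 ± 0.10 (limma, adjusted p = 0.0205). The rise of Mrps18b was not called without T2D control pool 5 (adjusted p = 0.0758) or pool 6 (adjusted p = 0.0525), nor after quantile normalization (adjusted p = 0.143). The cluster of a pseudogene of Mrps18b, Mrps18b-ps1, differed by -0.15 ± 0.15 and was not called. Mrpl42 had the next smallest p among the higher genes, at 7.95, 8.21 and 8.11 in healthy and 8.15, 8.36 and 8.30 in T2D control, where the groups overlapped (difference 0.18 ± 0.09, limma adjusted p = 0.143).

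**Figure D3:**
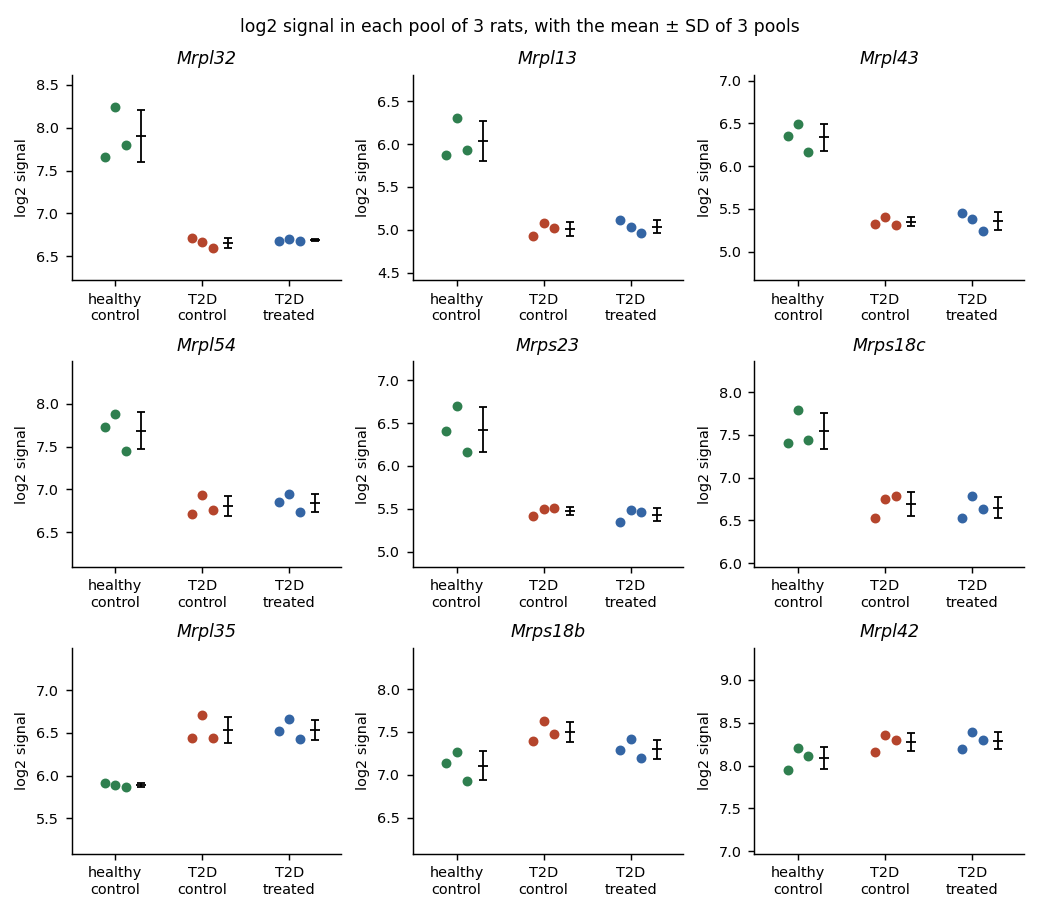
log2 signal (y axis, the same span in every panel) of 9 genes in each pool, with the mean ± SD of the 3 pools of a group beside the points. Healthy pools lie above all diabetic pools in the upper 6 panels and below them in the Mrpl35 panel, and T2D control and treated pools overlap in all 9.

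Bacterial S18 has 3 counterparts in mammalian mitochondria, and they did not move alike. Mrps18c fell and Mrps18b rose, whereas Mrps18a, whose product belongs to the large subunit, read 6.95, 7.07 and 6.79 in healthy and 6.79, 6.77 and 6.79 in T2D control, which overlapped (difference -0.15 ± 0.07, limma adjusted p = 0.134). Mrps30, also a large subunit protein, differed by -0.10 ± 0.07 and was not called (limma, adjusted p = 0.292). Mrpl58 fell by 0.30 ± 0.07 (limma, adjusted p = 0.0133), a call that was lost when each array was centred on the median of all clusters (-0.18, adjusted p = 0.0606) and without T2D control pool 4 (-0.26, adjusted p = 0.051). Mrps36 fell by 0.43 ± 0.08 (limma, adjusted p = 0.00511), but the position that its cluster carries is not that of the current Mrps36 gene, and its identity is uncertain.

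Promoter windows of 300 bases, 250 before and 50 after the start of 1 transcript, were available from RefSeq on the GRCr8 build for 60 of the 75 genes. That start lay within 50 bases of the outermost start of the gene model in 44 of the 60, and farther away in 16. The windows of 3 genes, all near that outermost start, are printed 5′ to 3′ on the strand of the gene, to show the promoter of the gene with the largest fall beside those of the S18 genes that moved in opposite directions. They are those of Mrpl32 (chr17:55260401-55260700, plus strand), Mrps18c (chr14:9122857-9123156, minus strand) and Mrps18b (chr20:2842756-2843055, plus strand). Capitals mark matches on either strand to GCGCATGC, contained in the NRF1 motif, to CCGGAA, the core of ETS factor motifs such as that of GABP, and to AAGATGG, a core of the YY1 motif.
Mrpl32: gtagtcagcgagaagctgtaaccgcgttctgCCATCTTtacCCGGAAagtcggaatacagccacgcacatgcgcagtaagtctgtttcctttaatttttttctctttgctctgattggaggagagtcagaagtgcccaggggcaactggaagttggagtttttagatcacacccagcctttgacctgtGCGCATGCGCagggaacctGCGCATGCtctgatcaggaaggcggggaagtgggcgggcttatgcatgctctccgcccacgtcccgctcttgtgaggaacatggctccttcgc
Mrps18c: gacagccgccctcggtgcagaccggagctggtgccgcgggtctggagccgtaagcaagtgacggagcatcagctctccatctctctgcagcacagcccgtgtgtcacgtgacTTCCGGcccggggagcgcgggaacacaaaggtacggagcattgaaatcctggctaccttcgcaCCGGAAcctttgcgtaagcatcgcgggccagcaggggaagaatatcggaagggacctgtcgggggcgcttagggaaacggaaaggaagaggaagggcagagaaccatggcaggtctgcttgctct
Mrps18b: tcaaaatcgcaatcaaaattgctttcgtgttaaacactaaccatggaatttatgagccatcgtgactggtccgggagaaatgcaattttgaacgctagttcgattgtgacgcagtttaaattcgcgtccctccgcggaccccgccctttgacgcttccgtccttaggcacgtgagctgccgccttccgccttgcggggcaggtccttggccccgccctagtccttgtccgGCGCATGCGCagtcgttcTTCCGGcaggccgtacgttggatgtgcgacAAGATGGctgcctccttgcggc
The windows of Mrpl32, which fell, and of Mrps18b, which rose, both held all 3 letter strings, and that of Mrps18c, which fell, held CCGGAA alone of the 3.

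Across the 60 windows, CCGGAA was found in 32, or 53.3%, compared with 18.6% of the 19005 windows of all protein-coding genes and 28.9% of the 6813 windows of genes with a mean signal of at least 5. AAGATGG was found in 16 windows (26.7%, against 7.58% and 9.26%) and GCGCATGC in 5 (8.33%, against 3.23% and 5.02%). In the same order of backgrounds, GGGCGG, bound by SP1, was found in 48.3% of the members' windows, against 43.1% and 62.2%. CCAAT was found in 45%, against 38.4% and 38%. CACGTG, the E-box, was found in 10%, against 7.27% and 9.98%, and TATAAA in 11.7%, against 13.1% and 7.74%. All strings were searched on both strands, and matches to different strings overlapped in 2 of the 60 windows. Of the 32 genes with CCGGAA, 21 fell, and of the 28 without it, 19 fell, with median differences of -0.43 and -0.39. Of the 16 with AAGATGG, 8 fell, and of the 44 without it, 32 fell, with medians of -0.22 and -0.42. These are counts of letters and were not tested.

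Mrps11 and Mrpl46 lie head to head, on opposite strands, with gene models 15 bases apart in the RefSeq annotation, and they were singled out after their values were seen. Mrps11, the counterpart of bacterial S11, read 6.52, 6.83 and 6.55 in healthy, 5.74, 5.89 and 5.85 in T2D control and 5.75, 5.74 and 5.84 in treated pools. It fell by 0.80 ± 0.09 (limma, adjusted p = 0.000503), and the groups did not overlap. Mrpl46, a large subunit protein specific to mitochondria, read 6.52, 7.00 and 6.45 in healthy, 6.38, 6.52 and 6.45 in T2D control and 6.36, 6.35 and 6.39 in treated pools. T2D control and healthy pools overlapped (difference -0.21 ± 0.13, limma adjusted p = 0.236). Within each array the log2 ratio of Mrps11 to Mrpl46 was 0.00, -0.17 and 0.10 in healthy pools 7, 8 and 9, and lay between -0.64 and -0.59 in T2D control and between -0.62 and -0.56 in treated pools. The ratio differed by -0.60 between T2D control and healthy control, with all diabetic pools below all healthy pools. Because the pair was chosen for this divergence, the ratio is given as a description without a test.

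Both subunits fell to a similar extent. Of the 46 Mrpl genes 30 fell and 1 rose, with a median difference of -0.42, and of the 29 Mrps genes 20 fell and 1 rose, with a median of -0.41. These were 65.2% and 69% of the genes. When Mrps30 and Mrps18a were counted with the large subunit and Mrps36 was left out, 30 of 48 large subunit genes and 19 of 26 small subunit genes fell, with medians of -0.41 in both. Within single arrays the median deviation of the large subunit genes minus that of the small subunit genes was -0.01 to 0.13 in the healthy pools, -0.01 to 0.04 in the T2D control pools and -0.04 to 0.00 in the treated pools, so the ranges overlapped. The range was widest in the healthy group, where pool 8 had both the highest signals and the largest excess of the large subunit.

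**Figure D4:**
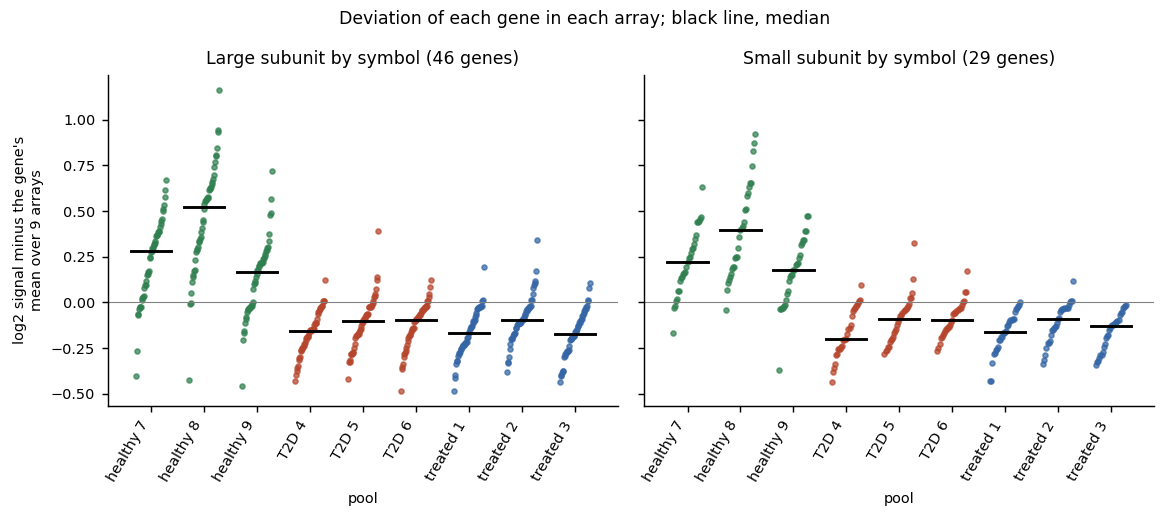
log2 signal of each gene minus its mean over the 9 arrays (y axis) in each pool (x axis), for the 46 Mrpl genes (left) and the 29 Mrps genes (right), with black lines at the medians. In both subunits the medians of the healthy pools lie between 0.17 and 0.52 and those of the diabetic pools between -0.20 and -0.09, and healthy pool 8 is the highest.

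The genes were also counted by evolutionary origin. Among the large subunit genes with a bacterial counterpart 17 of 25 fell and 1 rose (median -0.41), and among those specific to mitochondria 12 of 20 fell (median -0.42). In the small subunit 12 of 17 genes with a bacterial counterpart fell and 1 rose (median -0.41), and 6 of 8 specific to mitochondria fell (median -0.35). The 50 falls ranged from -1.25 to -0.22, and the 23 genes without a call from -0.43 to 0.18. Only Mrpl32 and Mrpl13 exceeded a 2-fold change, which the study's methods required beside an unadjusted p under 0.05.

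Mitochondrial ribosomal proteins that carry other symbols included a change larger than any of the 75 genes. Ptcd3, an RNA-binding protein of the small subunit, rose by 1.55 ± 0.33 (limma, adjusted p = 0.00824). Chchd1 of the small subunit differed by -0.99 ± 0.11, Gadd45gip1 of the large subunit by -0.44 ± 0.11 and Dap3, a GTP-binding protein of the small subunit, by -0.24 ± 0.08, and all 3 fell (limma, adjusted p = 0.000535, 0.0197 and 0.0417). The fifth gene, Aurkaip1, was not called, at 0.10 ± 0.09.

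Factors that build the mitochondrial ribosome fell in 13 of 24 cases (54.2%) and rose in none (median -0.28). Over all clusters 22.6% were called lower and 12.4% higher (median -0.12). Mterf4, which guides a methyltransferase to the large subunit, fell by 1.37 ± 0.18, Rbfa, a factor of the small subunit, by 0.61 ± 0.07, the GTPase Gtpbp10 by 0.48 ± 0.06 and Rpusd4, a pseudouridine synthase, by 0.45 ± 0.06, with limma adjusted p-values between 0.000685 and 0.00117. Of the translation factors 6 of 14 (42.9%) were lower and 2 (14.3%) higher. Their share of rises and their median (-0.10) were near those of all clusters. The elongation factor gene Tsfm fell by 0.51 ± 0.08 and Guf1 by 0.40 ± 0.06, whereas Gfm2, which helps to recycle ribosomes, rose by 0.36 ± 0.05 and Oxa1l, which inserts new proteins into the inner membrane, rose by 0.34 ± 0.05 (limma, adjusted p between 0.00112 and 0.00235).

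Mitochondrial aminoacyl-tRNA synthetases, which charge the tRNAs of the organelle, were closer to the background, with 4 of 16 lower and 1 higher (median -0.07). Cars2 fell by 0.67 ± 0.07 and Iars2 rose by 0.46 ± 0.09 (limma, adjusted p = 0.000523 and 0.00762). Of the genes of mitochondrial transcription and RNA handling, 5 of 16 (31.2%) fell and none rose. Over all clusters 22.6% were called lower and 12.4% higher. The median of the list, -0.10, was near that of all clusters, -0.12. Tfam, which packages mitochondrial DNA and starts its transcription, read 6.57 on average in healthy and 5.43 in T2D control livers and fell by 1.14 ± 0.11 (limma, adjusted p = 0.000249). Hsd17b10, a subunit of mitochondrial RNase P, fell by 0.90 ± 0.09, Mterf1 by 0.76 ± 0.08 and the elongation factor Tefm by 0.68 ± 0.09 (limma, adjusted p between 0.000308 and 0.00139).

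Lower signals were not particular to the mitochondrial ribosome. Of 73 cytosolic ribosomal protein genes 41 fell and 6 rose (median -0.33), and of 89 nuclear genes of respiratory chain and ATP synthase subunits 51 fell and 6 rose (median -0.43).

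**Figure D5:**
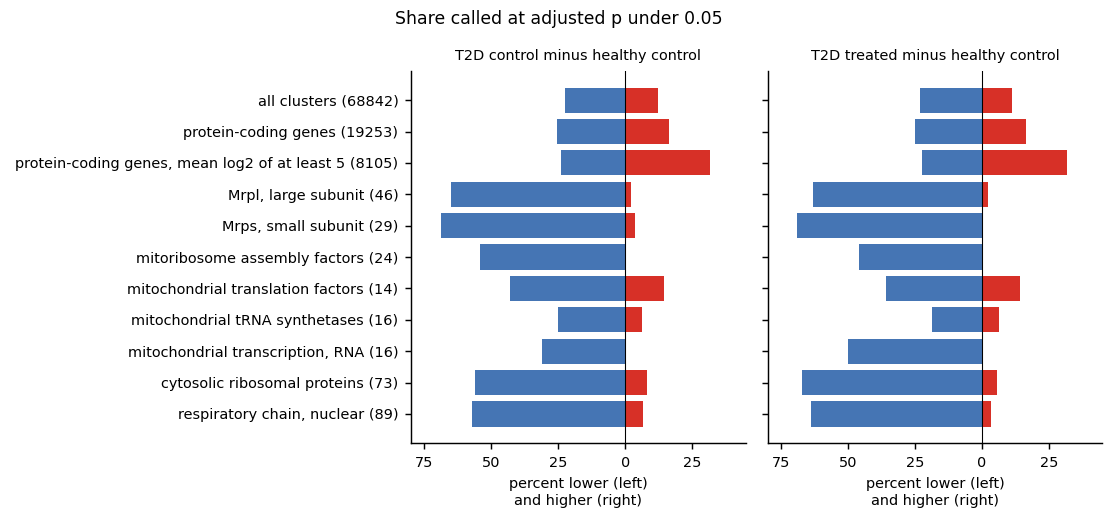
Percent of genes called lower (blue, left of 0) and higher (red, right of 0) at an adjusted p under 0.05 for T2D control and for T2D treated, each against healthy control, with the number of genes in each list in parentheses. Between 54.2% and 69% of the genes of both subunits, the assembly factors, the cytosolic ribosome and the respiratory chain were lower in T2D control, against 22.6% of all clusters.

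Some markers of other liver cells moved in the same comparison, in which 12.4% of all clusters were called higher and 22.6% lower. Among protein-coding genes with a mean signal of at least 5 these shares were 31.7% and 24%. Of the macrophage and Kupffer cell markers 9 of 14 were called higher in T2D control than in healthy control, of the sinusoidal endothelium markers 8 of 8, and of the stellate cell and fibrosis markers 8 of 9. Their summed linear signals were 2434 to 2829, 721 to 933 and 630.1 to 670.5 in the healthy pools, and 5008 to 5736, 1315 to 1441 and 1406 to 1612 in the T2D control pools. Hepatocyte markers had 4 of 14 higher and 3 lower, with sums of 34946 to 37478 in healthy and 34507 to 39313 in T2D control. Of the neutrophil and lymphocyte markers 1 of 7 was higher (sums 94.8 to 112 and 201 to 237). Of the cholangiocyte markers 1 of 4 was lower (sums 96.7 to 109 and 90.0 to 92.1). The shares called of hepatocyte (28.6% higher, 21.4% lower), neutrophil and lymphocyte (14.3% higher) and cholangiocyte markers (25% lower) were near these background shares. All T2D control pools lay below all healthy pools in 3 of the 4 cholangiocyte markers and above them in 0. Over all clusters 32.7% lay below and 15% above. No marker was at 0, since arrays give every probe a signal, and the part of these cells in the fall was not tested.

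No change of these genes was detectable after 7 days of Cγ and lupanine. Between T2D treated and T2D control, 0 of the 75 genes were called (limma, smallest adjusted p = 0.746), and 2 had an unadjusted p under 0.05, Mrpl1 and Mrps22. Over all clusters 0.0639% were called lower and 0.00291% higher. The median difference was -0.01, with 0.00 for the large and -0.04 for the small subunit. Single differences ran from -0.31 to 0.15 with SEs of 0.05 to 0.16, and the 95% intervals of 74 genes lay within 0.5 log2 units of 0. In 73 genes the interval included 0. In this fit the healthy pools also entered the estimate of the spread. With only these 2 groups fitted, 4 genes had an unadjusted p under 0.05 (limma, smallest adjusted p = 0.18). With array weights there were 6 (limma, smallest adjusted p = 0.063). The median SE was 0.05 in both, against 0.09 in the main fit, and no gene was called in either.

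Mrpl1 had the lowest value in this comparison. Its product forms the mobile stalk at the exit site of the large subunit, and its signals were 5.62, 5.94 and 5.52 in healthy, 5.21, 5.30 and 5.35 in T2D control and 4.90, 4.99 and 5.04 in treated pools. The 3 groups did not overlap, with the treated pools lowest. The difference between treated and T2D control was -0.31 ± 0.11, with a 95% interval from -0.56 to -0.07, and did not pass the correction (limma, adjusted p = 0.746). Its other cluster gave -0.24 ± 0.10. Mrps22, a small subunit protein specific to mitochondria, read 6.75, 6.92 and 6.75 in healthy, 6.75, 6.86 and 6.79 in T2D control and 6.47, 6.59 and 6.70 in treated pools, so that the treated pools were below both other groups (difference from T2D control -0.21 ± 0.08, limma adjusted p = 0.848).

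The remaining genes were closer together. Mrps18b was lower by 0.20 ± 0.10 in treated than in T2D control pools, which overlapped. On the higher side Mrpl49 differed by 0.15 ± 0.10, Mrps24 by 0.11 ± 0.11 and Mrpl51 by 0.05 ± 0.07, each with a limma adjusted p of 1. The treated pools of Mrpl49 (5.48, 5.48 and 5.49) were all above those of T2D control (5.35, 5.26 and 5.39) and all below those of healthy control (5.83, 6.16 and 5.80). The fall of Mrpl49 was -0.60 ± 0.10 in T2D control and -0.44 ± 0.10 in treated livers. All 3 treated pools lay above all 3 T2D control pools in 2 of the 75 genes and below them in 3, compared with 5.27% and 8.99% of all clusters.

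Treated livers kept the distance from healthy livers. In T2D treated against healthy control 49 genes fell and 1 rose, with a median difference of -0.44, while 23.1% of all clusters were called lower and 11.1% higher. Of the Mrpl genes 29 of 46 fell and 1 rose (median -0.45), and of the Mrps genes 20 of 29 fell (median -0.42). The largest falls were those of Mrpl32 (-1.22 ± 0.13), Mrpl13, Mrps23 (-0.99 ± 0.12), Mrpl43 (-0.98 ± 0.09), Mrpl41l1 (-0.93 ± 0.14) and Mrps18c (-0.89 ± 0.12), with Mrpl13 at 5.11, 5.03 and 4.96 against 5.87, 6.30 and 5.93. Mrpl35 rose by 0.64 ± 0.09 (limma, adjusted p = 0.00147), while Mrps18b, at 0.19 ± 0.10, was not called (limma, adjusted p = 0.17). Mrpl42 and Mrpl38 had values of 0.20 ± 0.09 and 0.12 ± 0.06 without a call. This comparison and that of T2D control share the healthy pools, and 48 genes fell in both. The factors and lists around the ribosome had no call between treated and T2D control livers. Of the macrophage, endothelium and stellate cell markers, 10 of 14, 8 of 8 and 7 of 9 were called higher in treated than in healthy livers, with summed signals of 4961 to 5775, 1371 to 1518 and 1271 to 1537 in the treated pools, and their part in the result was not tested. With the background-probe signal as a covariate 1 gene fell and none rose, and the median difference was 0.03.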

How the data were processed

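Liver RNA was hybridised to rat transcriptome arrays, 1 array per pool. The authors deposited log2 signals per probe cluster, made with Transcriptome Analysis Console 4.0.2 and RMA per the submitters' processing notes. They are relative to the other transcripts of an array, so a shift common to all would not be seen. They were used as deposited, over 68842 clusters without 1738 control probe sets. The genome build behind the clusters is not given in the sources used here. Gene symbols came from the platform annotation and biotypes from RefSeq (GRCr8). The members and gene lists were chosen with earlier results of these data known.

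Each group mean was fitted over all 9 arrays and contrasts were moderated (R 4.3.3, limma 3.58.1), two-sided, with Benjamini-Hochberg adjustment over all clusters and a threshold of 0.05. Genes named are the 6 largest called rises and falls of each comparison, the 3 with the smallest p where under 3 were called in a direction, the brightest and dimmest of each subunit, those whose symbol misleads, those on several clusters, and up to 4 per related list. Cytosolic ribosomal genes were matched by symbol, leaving out like copies. Data were simulated for T2D control against healthy control over 68842 clusters. Of 100 differences of 1.5 log2 units 95 were recovered, and of 100 of 0.5 units 39, with 1 false call. The measured comparison had far more called clusters (15527 lower and 8556 higher), which changes the adjustment, so these shares do not give its recovery. Signal depth cannot be counted on arrays, and 3 pools per group limit the precision. The alternatives were other scalings, samples in the fit, variance models, array weights, a filter on dim clusters, protein-coding clusters alone, all clusters of a gene, the methods' threshold, each pool left out, and a background covariate added after seeing the data. Promoter windows were searched with Python 3.11.15 and figures drawn with matplotlib 3.10.9.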

Additional observations from a re-analysis of the deposited data

How the results depend on the processing

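Scaling moved the size of the fall but not its direction. Centring each array on the median of all clusters gave 40 falls, 4 rises and a median of -0.30 in T2D control against healthy control, and 40 falls, 5 rises and -0.32 in T2D treated against healthy control. Centring on bright protein-coding clusters gave medians of -0.53 and -0.57, with 61 and 66 falls, while the median of all clusters then moved to -0.23 and -0.26. Quantile normalization left 1 rise in T2D control and gave a large minus small subunit difference of -0.072, against -0.0035 as deposited. Array weights gave 2 rises and a subunit difference of -0.11 in T2D treated against healthy control. Fitting only the 2 groups compared gave 43 falls in T2D control and 43 in T2D treated against healthy control. Over all clusters 9759 and 9877 were then called lower, against 15527 and 15929 in the main fit. The methods' threshold gave 2 falls and 0 rises in T2D control and 1 fall and 0 rises in T2D treated, since few differences exceeded 2-fold.

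The background covariate ended nearly all calls. In T2D control against healthy control it gave 0 falls, 0 rises, a median of 0.15 and a subunit difference of 0.19, and in T2D treated 1 fall, 0 rises, a median of 0.033 and a subunit difference of 0.19. Values under the covariate were listed gene by gene only for the genes selected for naming. Among these, 6 that had fallen in T2D control had values above 0. They were Mrpl1 (0.26), Mrpl36 (0.81), Mrpl49 (0.074), Mrpl53 (0.17), Mrpl58 (0.085) and Mrps24 (0.34). In T2D treated there were 4, Mrpl49 (0.16), Mrpl53 (0.042), Mrpl58 (0.040) and Mrps24 (0.36), and all of these values were without a call. Since both medians over all the genes were above 0, most genes lay above 0 in this fit. They must include further genes that had fallen. The cause was not tested.

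Leaving out 1 pool at a time gave 41 to 55 falls, 1 to 2 rises and medians of -0.47 to -0.36 in T2D control against healthy control. The single rise left without T2D control pool 5 or pool 6 was Mrpl35. The fall of Mrpl1 was not called without T2D control pool 4 or pool 5 (limma, adjusted p = 0.069 and 0.056). That of Mrpl36 stayed called only when the pool left out was healthy pool 9. With only the 2 groups fitted, neither fall was called (limma, adjusted p = 0.058 and 0.096). In T2D treated against healthy control, leaving out 1 pool gave 39 to 57 falls, 1 rise and medians of -0.49 to -0.33, the last without healthy pool 8. The subunit difference ran from -0.057 to -0.0034 and from -0.097 to -0.023, with both lowest values without healthy pool 9. No setting called any gene between T2D treated and T2D control. No paired analysis was possible because the groups share no pool numbers.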
